A study of Mus musculus with 11 samples.

Results

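The endoplasmic reticulum (ER) chaperone and unfolded protein response genes examined here were 31 genes taken by name: chaperones and folding enzymes of the ER lumen, ER-associated degradation (ERAD) components, translocon subunits, and the stress sensors with Xbp1. Probes were assigned to them through the RefSeq accession of each array probe. All 31 had a probe that passed the signal filter, out of 25082 genes or unnamed features tested. The cells were 4 lines of L-GMP cells, granulocyte-macrophage progenitors of the mouse that the fusion oncogene MLL-AF9 had transformed, established from C57BL/6 animals with leukaemia. In every line the histone H3 lysine demethylase genes Kdm4a, Kdm4b and Kdm4c (Jmjd2a, Jmjd2b and Jmjd2c) were floxed, and CreERT2, a Cre recombinase that tamoxifen switches on, was at Rosa26. Transcripts were measured on 1-colour arrays at 0 h without drug (4 arrays), and at 48 h (4 arrays) and 96 h (3 arrays) in 500 nM 4-hydroxytamoxifen, in medium with 20% fetal bovine serum and 10 ng/ml IL-3. MLL-AF9, the floxed alleles and the recombinase were common to all groups, so the 0 h cells are untreated floxed cells and not wild type. Treated cells with unfloxed Kdm4 genes, and untreated cells kept to 48 or 96 h, were not analysed here, so gene loss, drug or recombinase exposure and time in culture cannot be told apart.

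Proteins that enter the secretory pathway fold in the ER with the help of Hsp70-type and Hsp90-type chaperones, lectin chaperones and disulfide isomerases, and those that fail are sent back to the cytosol for degradation. When unfolded proteins accumulate, the sensors IRE1 (Ern1), ATF6 and PERK (Eif2ak3) start the unfolded protein response. IRE1 splices the Xbp1 message, ATF6 is cleaved to a transcription factor, and PERK slows translation and raises ATF4 and its target CHOP (Ddit3). Granulocyte-macrophage progenitors make large amounts of granule enzymes such as myeloperoxidase, which mature in the ER with calreticulin and calnexin.

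The promoter element by which ATF6 and XBP1 are best known to act is the ER stress response element (ERSE), CCAAT and CCACG separated by any 9 bases, where NF-Y occupies the CCAAT. Both strands of the RefSeq promoter windows (build GRCm38.p6, 250 bases before to 50 bases after each start site) were searched. A window was listed for 26 of the 31 genes and not for Hyou1, Manf, Sec61a1, Derl1 and Atf6, which are named only. An ERSE was found in 39 of 32851 windows (0.119%) and in those of 9 of the 26 genes, Hsp90b1 holding 2 copies. The copies are shown because they include the genes with the clearest increases below. Each is written 5′ to 3′ on the strand that reads CCAAT first, with CCAAT and CCACG in capitals.

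Creld2 (chr15:88819520-88819538, minus strand): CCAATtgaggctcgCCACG
Calr (chr8:84847075-84847093, plus strand): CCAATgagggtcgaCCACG
Pdia6 (chr12:17266491-17266509, plus strand): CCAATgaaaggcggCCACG
Derl3 (chr10:75893242-75893260, minus strand): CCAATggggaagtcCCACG
Hsp90b1 (chr10:86705638-86705656, minus strand): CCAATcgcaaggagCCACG
Hsp90b1 (chr10:86705533-86705551, plus strand): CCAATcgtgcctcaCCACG
Hspa5 (chr2:34772025-34772043, plus strand): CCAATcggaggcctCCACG
Dnajc3 (chr14:118937827-118937845, plus strand): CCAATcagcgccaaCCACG
Canx (chr11:50325800-50325818, minus strand): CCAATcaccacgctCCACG
Syvn1 (chr19:6046532-6046550, plus strand): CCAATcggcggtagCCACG

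Their distances from the start site ranged from 26 to 212 bases upstream. A related element, ERSE-II, is ATTGG and CCACG separated by any 1 base. It was present in 12 windows (0.0365%), of which 2 belonged to these genes. Capitals again mark the paired parts.

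Herpud1 (chr8:94386377-94386387, plus strand): ATTGGgCCACG
Dnajb11 (chr16:22857852-22857862, plus strand): ATTGGcCCACG

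The Dnajb11 copy lay 7 to 17 bases after its start site, and that of Herpud1 42 to 52 bases before it. The half-element CCACG alone, contained in both elements, was in 32.8% of windows and in 22 of the 26. The XBP1 core, TGACG directly followed by TGG, was in 0.676% of windows and in that of Txndc5. The C/EBP-ATF core recognised by ATF4 and CHOP, TGATG and AA separated by any 1 base, was in 3.97% of windows and in those of Herpud1 and Txndc5. Whole windows are given for 3 genes that rose and 1 that fell at 48 h, on the strand of the gene, with ERSE or ERSE-II parts in capitals. Herpud1 is the only gene that fell whose window holds an ERSE or ERSE-II. The windows of Sel1l and Ern1, which also fell, hold neither, and Derl1 and Atf6 had no listed window. Where the element lies on the other strand the capitals read CGTGG and ATTGG. A match describes these letters and is no evidence of a factor's binding.

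Creld2 (chr15:88819396-88819695, plus strand): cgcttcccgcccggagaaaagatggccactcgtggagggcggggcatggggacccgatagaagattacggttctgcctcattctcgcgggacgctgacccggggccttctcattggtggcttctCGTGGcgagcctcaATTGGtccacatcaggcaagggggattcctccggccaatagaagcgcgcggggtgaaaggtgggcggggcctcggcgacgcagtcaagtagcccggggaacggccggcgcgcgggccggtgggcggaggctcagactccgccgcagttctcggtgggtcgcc
Calr (chr8:84846882-84847181, minus strand): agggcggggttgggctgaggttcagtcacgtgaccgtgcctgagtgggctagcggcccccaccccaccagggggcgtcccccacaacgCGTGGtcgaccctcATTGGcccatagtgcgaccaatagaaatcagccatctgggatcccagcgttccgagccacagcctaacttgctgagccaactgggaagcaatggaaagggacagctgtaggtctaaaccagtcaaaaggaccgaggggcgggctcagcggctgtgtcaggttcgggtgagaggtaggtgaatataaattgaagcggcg
Derl3 (chr10:75893148-75893447, plus strand): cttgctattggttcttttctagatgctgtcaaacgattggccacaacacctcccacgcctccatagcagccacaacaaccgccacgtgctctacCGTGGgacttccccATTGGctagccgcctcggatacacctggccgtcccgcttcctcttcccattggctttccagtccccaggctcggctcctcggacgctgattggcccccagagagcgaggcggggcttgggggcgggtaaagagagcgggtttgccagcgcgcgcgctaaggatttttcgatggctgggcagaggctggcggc
Herpud1 (chr8:94386179-94386478, plus strand): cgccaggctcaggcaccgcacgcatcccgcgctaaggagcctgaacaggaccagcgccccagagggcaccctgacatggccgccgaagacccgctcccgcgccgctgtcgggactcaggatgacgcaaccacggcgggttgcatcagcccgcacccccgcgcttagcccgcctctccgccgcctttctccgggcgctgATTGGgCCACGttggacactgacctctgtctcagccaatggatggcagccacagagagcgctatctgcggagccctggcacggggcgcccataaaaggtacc

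Values are the scaled log2 signal, the log2 processed intensity of a probe minus the array's 75th percentile, so 0 is the 75th percentile and 1 unit is a 2-fold step. Each array gave 29770 to 44975 of 59305 non-control spots well above background. The 75th percentile itself ran from 149 to 204 intensity units at 0 h, 108 to 147 at 48 h and 229 to 294 at 96 h. It was thus lowest at 48 h and highest at 96 h, with no overlap between the times. The number of arrays, 3 or 4 a group, limits the precision. As a check of the labels, the Kdm4a probe was at 33.1% of its 0 h level at 48 h and 43.6% at 96 h, Kdm4b at 10.2% and 10.5%, and Kdm4c at 3.24% and 4.13%, with every treated array below every 0 h array. Which exons the recombinase removes is not stated in the labels, and the Kdm4c probe was well above background on 2 of 4 arrays at 48 h. All 12 myeloid progenitor markers were detected on all arrays, with a summed linear signal, in multiples of the 75th percentile, of 981 to 1240 at 0 h, 1400 to 1490 at 48 h and 1320 to 1370 at 96 h. Mpo, which encodes myeloperoxidase, rose by 4.33 on the log2 scale at 48 h (adjusted p = 0.00199) and by 5.18 at 96 h (adjusted p = 0.00264). Ms4a3 of the same list rose too (1.74, adjusted p = 0.0204, and 1.88, adjusted p = 0.0330), Il3ra fell (-1.20, adjusted p = 0.00243, and -1.89, adjusted p = 0.00137), and the other 9 were not called at either time. The 10 mature neutrophil markers summed to 54.9 to 555 at 0 h, 162 to 581 at 48 h and 780 to 1460 at 96 h, and 9 of them were detected on all arrays. At 48 h 1 of them was called higher, Camp (2.50, adjusted p = 0.0159), and 0 lower. At 96 h 4 were called higher and 0 lower. These were Ltf (6.82, adjusted p = 0.000998), Camp (5.70, adjusted p = 0.0024), Retnlg (4.45, adjusted p = 0.0121) and S100a8 (3.11, adjusted p = 0.0344). Of 8 plasma cell and B cell markers, 3 were detected on all arrays, with sums of 0.701 to 1.03, 1.30 to 1.75 and 0.861 to 1.03 at 0, 48 and 96 h. In bulk cells, fewer cells of a type and less RNA per cell cannot be told apart.

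At 48 h against 0 h, 9 of the 31 genes changed. Creld2, Calr, Pdia6 and Derl3 rose, and Herpud1, Sel1l, Derl1, Ern1 and Atf6 fell, by limma's moderated test adjusted over all genes at a threshold of 0.05. The other 22 did not pass, among them Hspa5, a common readout of the response. Over all genes tested, 10.5% were called higher and 8.02% lower. The 4 of 31 called higher are near that background, and the 5 of 31 called lower lie above it by few genes. Here and below, all genes covers unnamed features too, and 14999 of the 25082 tested had a symbol. With only probes detected on all arrays kept, 2977 of 19669 were higher and 2345 lower over all genes. Among the genes examined, 4 were then higher and 6 lower. The median log2 difference of the 31 genes was 0.08, within a range of -1.06 to 1.78, and that of all genes 0.12. Every 48 h array was above every 0 h array for 8 genes (14.1% of all genes) and below for 5 (9.83%). The 8 were the 4 that rose and Hsp90b1, Hyou1, Canx and P4hb, and the 5 were those that fell.

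**Figure D1:**
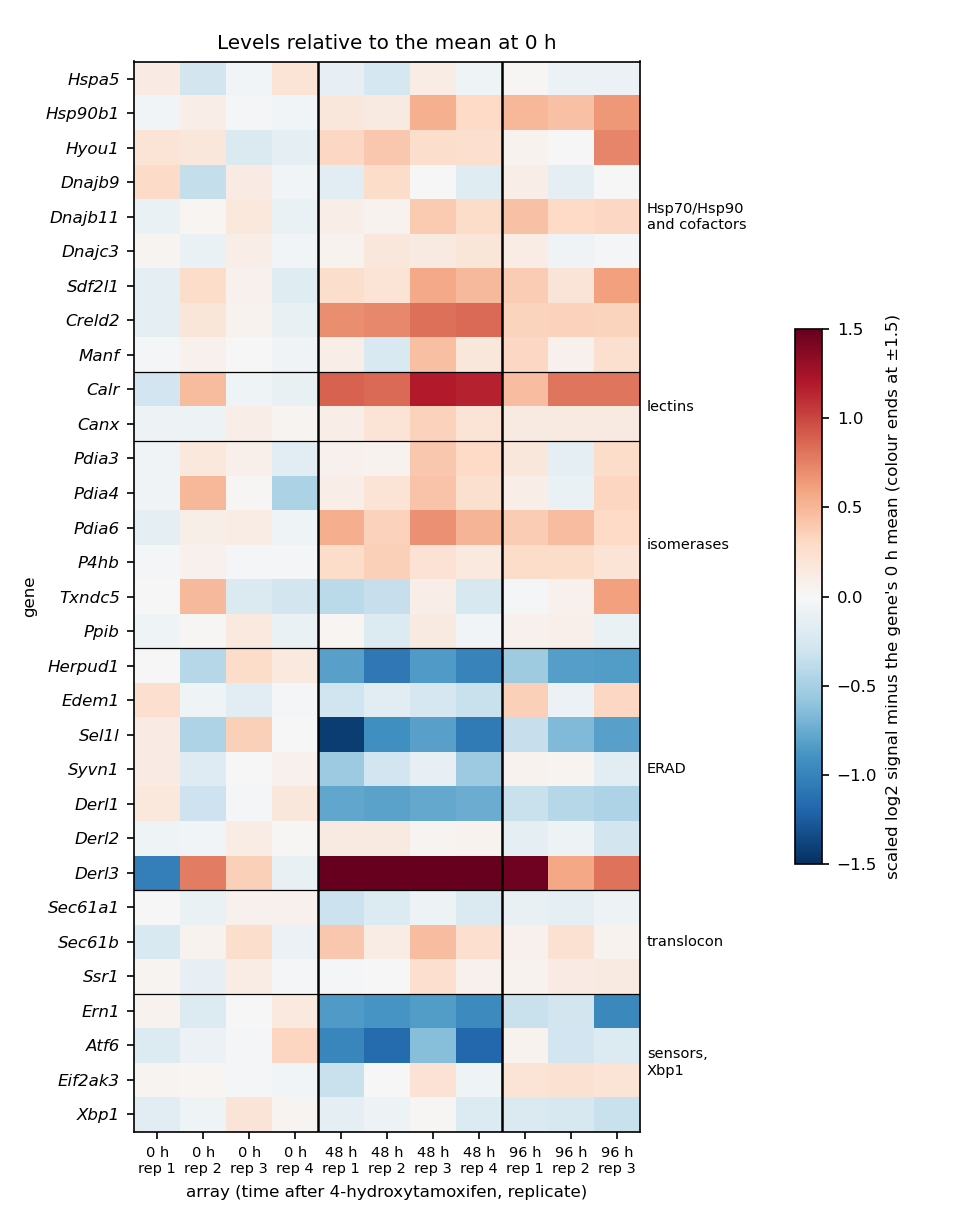
Scaled log2 signal of each of the 31 genes (rows, grouped by role) on each of the 11 arrays (columns, 0, 48 and 96 h), minus the gene's mean at 0 h. Red is above and blue below that mean, with the colour ending at 1.5 in either direction; Creld2, Calr and Derl3 are red and Herpud1, Sel1l, Derl1, Ern1 and Atf6 blue on all 4 arrays at 48 h.

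Of the 9 genes grouped here with the Hsp70-type and Hsp90-type chaperones and cofactors, 1 rose at 48 h, 0 fell, and the median difference was 0.21. Hspa5, Hsp90b1, Hyou1, Dnajb9, Dnajb11 and Dnajc3 of this group were not called at 48 h. The gene that rose was Creld2, an ER-stress-inducible resident of the lumen with disulfide isomerase activity. Its probe read 4.42, 4.73, 4.60 and 4.44 at 0 h, 5.25, 5.27, 5.38 and 5.40 at 48 h, and 4.88, 4.89 and 4.88 at 96 h. The 3 times did not overlap: all 48 h arrays were highest and all 96 h arrays lay between them and the 0 h arrays. Creld2 was 1.71-fold higher at 48 h than at 0 h (log2 difference 0.78, SE 0.09, adjusted p = 0.00199), the smallest adjusted p of the 31.

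Hsp90b1, the Hsp90 of the ER, was called at 96 h and not at 48 h. It read 5.86, 6.00, 5.87 and 5.86 at 0 h, 6.07, 6.04, 6.43 and 6.20 at 48 h, and 6.40, 6.34 and 6.55 at 96 h. Every treated array was above every 0 h array, but the 48 h difference of 0.29 did not pass (SE 0.11, adjusted p = 0.0845), whereas at 96 h Hsp90b1 was 1.45-fold higher (0.53, SE 0.11, adjusted p = 0.0237). The difference between 96 h and 48 h, 0.25, did not pass itself (adjusted p = 0.191). Hspa5, the Hsp70 of the ER (BiP), which also restrains the sensors, read 7.37, 6.97, 7.21 and 7.46 at 0 h, 7.13, 6.99, 7.36 and 7.19 at 48 h, and 7.27, 7.16 and 7.16 at 96 h. The 3 times overlapped, and its difference was -0.08 at 48 h (95% interval -0.36 to 0.19) and -0.05 at 96 h (-0.35 to 0.24). Its window holds an ERSE as well.

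The BiP cochaperones Dnajb9, Dnajb11 and Dnajc3 had 48 h differences of -0.02, 0.21 and 0.13 and 96 h differences of -0.02, 0.35 and 0.01, none of them called. Sdf2l1, a partner of ER J-domain proteins, had 0.38 at 48 h (adjusted p = 0.0877) and 0.39 at 96 h (adjusted p = 0.125). For Hyou1, a nucleotide exchange factor of BiP, the differences were 0.31 and 0.26, and for Manf, a secreted BiP-binding protein, 0.12 and 0.21. Hyou1 was measured by a dim probe, and its 4 arrays at 48 h (-1.15 to -0.99) lay above the 4 at 0 h (-1.62 to -1.19).

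Calr, which encodes the lectin chaperone calreticulin, rose at both times. It read 5.36, 6.12, 5.58 and 5.54 at 0 h, 6.54, 6.50, 6.84 and 6.81 at 48 h, and 6.11, 6.45 and 6.45 at 96 h. The 48 h arrays were all above the 0 h arrays, while at 96 h the lowest array was just under the highest at 0 h. Calr was 2.03-fold higher at 48 h (1.02, SE 0.17, adjusted p = 0.00557) and 1.61-fold higher at 96 h (0.69, SE 0.18, adjusted p = 0.0438). Canx, encoding the membrane-bound lectin chaperone calnexin, had a difference of 0.22 at 48 h that did not pass (adjusted p = 0.104). Its 48 h arrays (5.65 to 5.90) were nonetheless all at or above the highest 0 h array (5.47 to 5.65), and its 96 h difference was 0.14.

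Of the 6 disulfide and prolyl isomerase genes, Pdia6 rose at 48 h and 5 did not pass. Pdia6, a disulfide isomerase that binds BiP and limits IRE1 signalling, read 6.76, 6.98, 7.0 and 6.82 at 0 h, 7.43, 7.24, 7.57 and 7.40 at 48 h, and 7.27, 7.35 and 7.19 at 96 h. Neither treated group overlapped the 0 h arrays. The difference was 0.52 at 48 h (1.43-fold, SE 0.10, adjusted p = 0.00911) and 0.38 at 96 h, which did not pass (SE 0.11, adjusted p = 0.0540). A second Pdia6 probe, A_51_P297968, gave 0.38 at 48 h (adjusted p = 0.0216 over all probes) and 0.37 at 96 h (adjusted p = 0.0477).

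P4hb, the classical protein disulfide isomerase, came next: all 48 h arrays (5.75 to 5.96) and all 96 h arrays (5.80 to 5.88) lay above the 0 h arrays (5.57 to 5.66). Its differences of 0.25 (adjusted p = 0.0514) and 0.26 (adjusted p = 0.0846) did not pass. With the number in the scanner files as a replicate block, the 48 h difference did pass (adjusted p = 0.0494). It did not pass with the title number as the block. With the array median as the scale it was 0.03 (adjusted p = 0.941). Pdia3, the isomerase that works with calreticulin and calnexin, had 0.20 at 48 h and 0.10 at 96 h, and Pdia4 had 0.24 and 0.10. Txndc5 had -0.22 at 48 h and 0.23 at 96 h, and Ppib, a cyclophilin that isomerises prolines, -0.03 and 0.01.

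**Figure D2:**
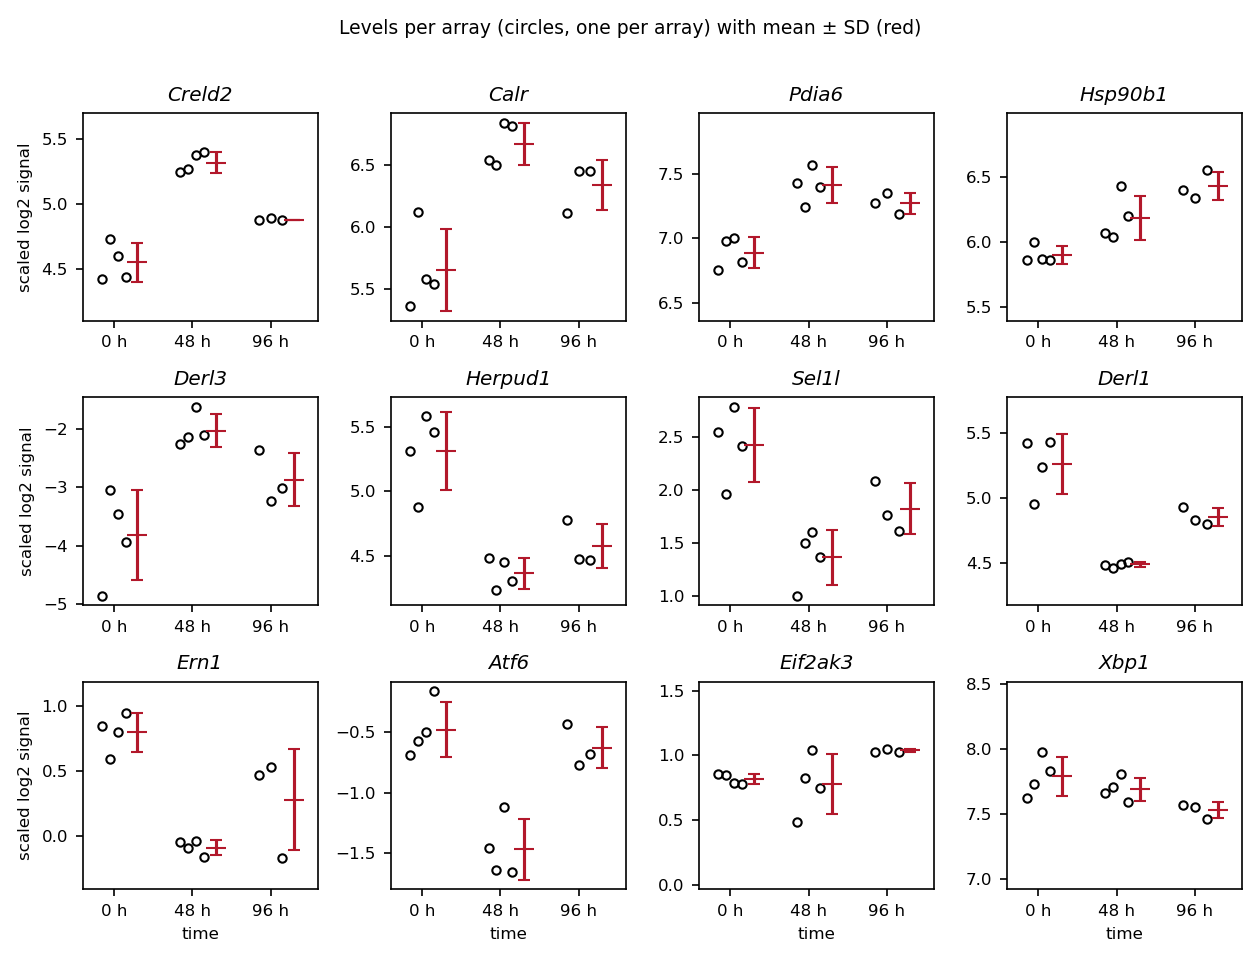
Scaled log2 signal of 12 genes, 1 panel each, with 1 circle per array (4 at 0 h, 4 at 48 h and 3 at 96 h) and the mean ± SD of each time in red. The vertical axes differ in position and in span between panels. The 48 h arrays lie above the 0 h arrays for Creld2, Calr, Pdia6, Hsp90b1 and Derl3 and below them for Herpud1, Sel1l, Derl1, Ern1 and Atf6, while those of Eif2ak3 and Xbp1 overlap.

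The 7 ERAD genes went in both directions at 48 h: 3 fell, 1 rose, and the median difference was -0.38. Herpud1, a ubiquitin-like membrane protein that organises the retrotranslocation complex, read 5.31, 4.88, 5.58 and 5.46 at 0 h, 4.49, 4.24, 4.46 and 4.31 at 48 h, and 4.78, 4.48 and 4.47 at 96 h. All 7 treated arrays were below all 0 h arrays. Herpud1 fell by 0.94 on the log2 scale at 48 h (SE 0.15, adjusted p = 0.00508) and by 0.73 at 96 h (SE 0.17, adjusted p = 0.0277).

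Sel1l, the adaptor that holds the ubiquitin ligase SYVN1 to its substrates, read 2.54, 1.96, 2.78 and 2.41 at 0 h, 1.0, 1.50, 1.60 and 1.36 at 48 h, and 2.08, 1.76 and 1.61 at 96 h. The 48 h arrays were all below the 0 h arrays, and the 96 h arrays overlapped them through 0 h replicate 2. Sel1l fell by 1.06 on the log2 scale at 48 h (2.08-fold lower, SE 0.20, adjusted p = 0.00777), and its 96 h difference of -0.60 did not pass (SE 0.21, adjusted p = 0.0945). Syvn1 itself had -0.38 at 48 h (adjusted p = 0.0594) and -0.03 at 96 h. Edem1, which marks misfolded glycoproteins for disposal, had -0.26 at 48 h and 0.20 at 96 h, and its 96 h arrays (2.56 to 3.01) were all above its 48 h arrays (2.32 to 2.49).

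The 3 Derlin genes encode membrane proteins that work with SYVN1 in retrotranslocation, and at 48 h 1 of them fell and 1 rose. Derl1 read 5.42, 4.95, 5.24 and 5.43 at 0 h, 4.48, 4.46, 4.49 and 4.51 at 48 h, and 4.93, 4.83 and 4.80 at 96 h. Its 48 h arrays lay within a narrow band below all others, and the 96 h arrays lay between the times. Derl1 fell by 0.78 on the log2 scale at 48 h (1.71-fold lower, SE 0.11, adjusted p = 0.00328). At 96 h its difference of -0.41 did not pass (SE 0.12, adjusted p = 0.0606), although it did with the scanner-file number as a replicate block (-0.47, adjusted p = 0.0407). A second Derl1 probe, A_51_P217236, gave -1.03 at 48 h (adjusted p = 0.00239) and -0.59 at 96 h (adjusted p = 0.0307).

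Derl3, the Derlin most restricted to secretory cells, went the other way from a low level. It read -4.85, -3.05, -3.46 and -3.93 at 0 h, -2.27, -2.14, -1.63 and -2.11 at 48 h, and -2.36, -3.24 and -3.01 at 96 h. It was well above background on every array except 1 at 0 h. All 48 h arrays were above all 0 h arrays, and 1 of the 96 h arrays was below the highest at 0 h. Derl3 was 3.44-fold higher at 48 h (1.78, SE 0.35, adjusted p = 0.0101), a size that depended on the processing. The log2 difference was 0.41 in the authors' deposited series table and 0.62 with a normexp correction. Which step of the processing made it smaller was not tested. The 96 h difference of Derl3, 0.95, did not pass (SE 0.38, adjusted p = 0.134). Of the 8 plasma cell and B cell markers, 2 were also called higher at 48 h, Jchain (1.60, adjusted p = 0.0414) and Sdc1 (1.15, adjusted p = 0.00394), and 6 were not called, among them Irf4 with -1.46 (adjusted p = 0.138). Of the 6 mast cell markers, 4 were tested and 2 called higher, Mcpt8 (1.02, adjusted p = 0.0175) and Tpsb2 (0.52, adjusted p = 0.00923). The part of other cells in the Derl3 signal was not tested.

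For Derl2 the probes did not agree. The brightest gave 0.08 at 48 h (adjusted p = 0.499) and A_55_P2178203 gave 0.05, whereas A_52_P84275 gave -0.58 (adjusted p = 0.0189 over all probes), so no single direction is given for Derl2. At 96 h the 3 probes gave -0.17, -0.22 and -0.30, not called. Among the translocon genes, Sec61a1, the pore subunit, had -0.21 at 48 h, Sec61b 0.31 and Ssr1, a subunit of the associated TRAP complex, 0.07. At 96 h these were -0.12, 0.12 and 0.10. None was called, and the other probes of Sec61b (0.25) and Ssr1 (0.05 and 0.24) were not called either.

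Of the 3 sensors, 2 fell at 48 h and the third did not pass. Atf6 read -0.69, -0.57, -0.50 and -0.16 at 0 h, -1.46, -1.64, -1.12 and -1.66 at 48 h, and -0.43, -0.77 and -0.68 at 96 h. The 48 h arrays stood below all 7 others, and the 96 h arrays overlapped those at 0 h. Atf6 fell by 0.99 on the log2 scale at 48 h (1.98-fold lower, SE 0.16, adjusted p = 0.00457), and its 96 h difference was -0.15 (adjusted p = 0.592).

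Ern1, the gene of IRE1, read 0.85, 0.59, 0.80 and 0.95 at 0 h, -0.05, -0.09, -0.04 and -0.16 at 48 h, and 0.47, 0.53 and -0.17 at 96 h. All treated arrays lay below the 0 h arrays, with the 96 h arrays spread from just under the lowest 48 h array to just under the lowest 0 h array. Ern1 fell by 0.88 on the log2 scale at 48 h (1.84-fold lower, SE 0.15, adjusted p = 0.00629), and at 96 h its difference of -0.52 did not pass (SE 0.16, adjusted p = 0.0727).

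Eif2ak3, the gene of PERK, read 0.86, 0.85, 0.79 and 0.78 at 0 h, 0.49, 0.83, 1.04 and 0.75 at 48 h, and 1.03, 1.05 and 1.03 at 96 h. Its difference was -0.04 at 48 h (95% interval -0.29 to 0.21) and 0.22 at 96 h (-0.05 to 0.49, adjusted p = 0.258), although the 96 h arrays were all above the 0 h arrays. Xbp1, the transcription factor gene whose message IRE1 splices, read 7.62, 7.73, 7.98 and 7.83 at 0 h, 7.66, 7.71, 7.81 and 7.59 at 48 h, and 7.57, 7.55 and 7.46 at 96 h. It had -0.10 at 48 h (95% interval -0.32 to 0.12) and -0.26 at 96 h (adjusted p = 0.139), where its arrays lay just below all others. The level of the Xbp1 probe says nothing of splicing, which the arrays did not measure.

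Pair by pair, the same-numbered 48 h and 0 h arrays gave the same sign for all 9 called genes. Calr differed by 1.17, 0.38, 1.26 and 1.27 in pairs 1 to 4, Sel1l by -1.54, -0.46, -1.18 and -1.05, and Derl3 by 2.57, 0.91, 1.83 and 1.82, each with its smallest change in pair 2. For 7 of the 9, 0 h replicate 2 was the 0 h array nearest to the 48 h mean. Without it, 6 genes were called higher and 6 lower at 48 h, the additions being Sdf2l1 (0.47, adjusted p = 0.0410), P4hb (0.27, adjusted p = 0.0487) and Syvn1 (-0.44, adjusted p = 0.0375).

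The calls of the 5 decreases at 48 h held under every alternative run. That of Derl3 held in the 23 alternatives that tested it, and Derl3 was not tested where only probes detected on all arrays were kept. The calls of Creld2, Calr and Pdia6 depended on the scale. With the median of each array in place of the 75th percentile their differences were 0.55, 0.80 and 0.30 (adjusted p = 0.0757, 0.0648 and 0.361), on a scale where the median of all genes was -0.10 at 48 h and -0.28 at 96 h. The size for Atf6, also a dim probe, was -0.62 in the authors' deposited series table and -0.48 with a normexp background correction.

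At 96 h against 0 h, 2 of the 31 genes were called higher (Calr and Hsp90b1) and 1 lower (Herpud1), with a median difference of 0.10 against 0.11 for all genes. Over all genes 6.17% were called higher and 3.38% lower, so these counts are near the background. Every 96 h array was above every 0 h array for 8 genes (16.4% of all genes) and below for 5 (8.70%). The 8 were Hsp90b1, Dnajb11 (0.35, adjusted p = 0.0775), Creld2 (0.34, adjusted p = 0.0618), Manf, Canx, Pdia6, P4hb and Eif2ak3, and the 5 were Herpud1, Derl1, Derl2, Ern1 and Xbp1. Both comparisons used the same 0 h arrays. The 96 h arrays were on a slide and scan of their own while 0 h and 48 h shared a slide, so slide and 96 h cannot be told apart.

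The 96 h calls depended more on the setting. The call held in 14 of 24 alternatives for Hsp90b1, in 10 of 24 for Calr and in 17 of 24 for Herpud1. The scanner-file number, by which the 96 h arrays pair, equals the slide column on every array, so line and column cannot be told apart. With that number as a replicate block, both Hsp90b1 (0.53, adjusted p = 0.0390) and Calr (0.74, adjusted p = 0.0376) were called. With the title number, by which the 96 h arrays do not pair, neither gene was called (adjusted p = 0.0507 and 0.0650). Without 0 h replicate 2, 4 genes were called higher and 3 lower at 96 h, the additions being Creld2 (0.40, adjusted p = 0.0276), Pdia6 (0.41, adjusted p = 0.0479), Sel1l (-0.76, adjusted p = 0.0318) and Derl1 (-0.51, adjusted p = 0.0118).

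**Figure D3:**
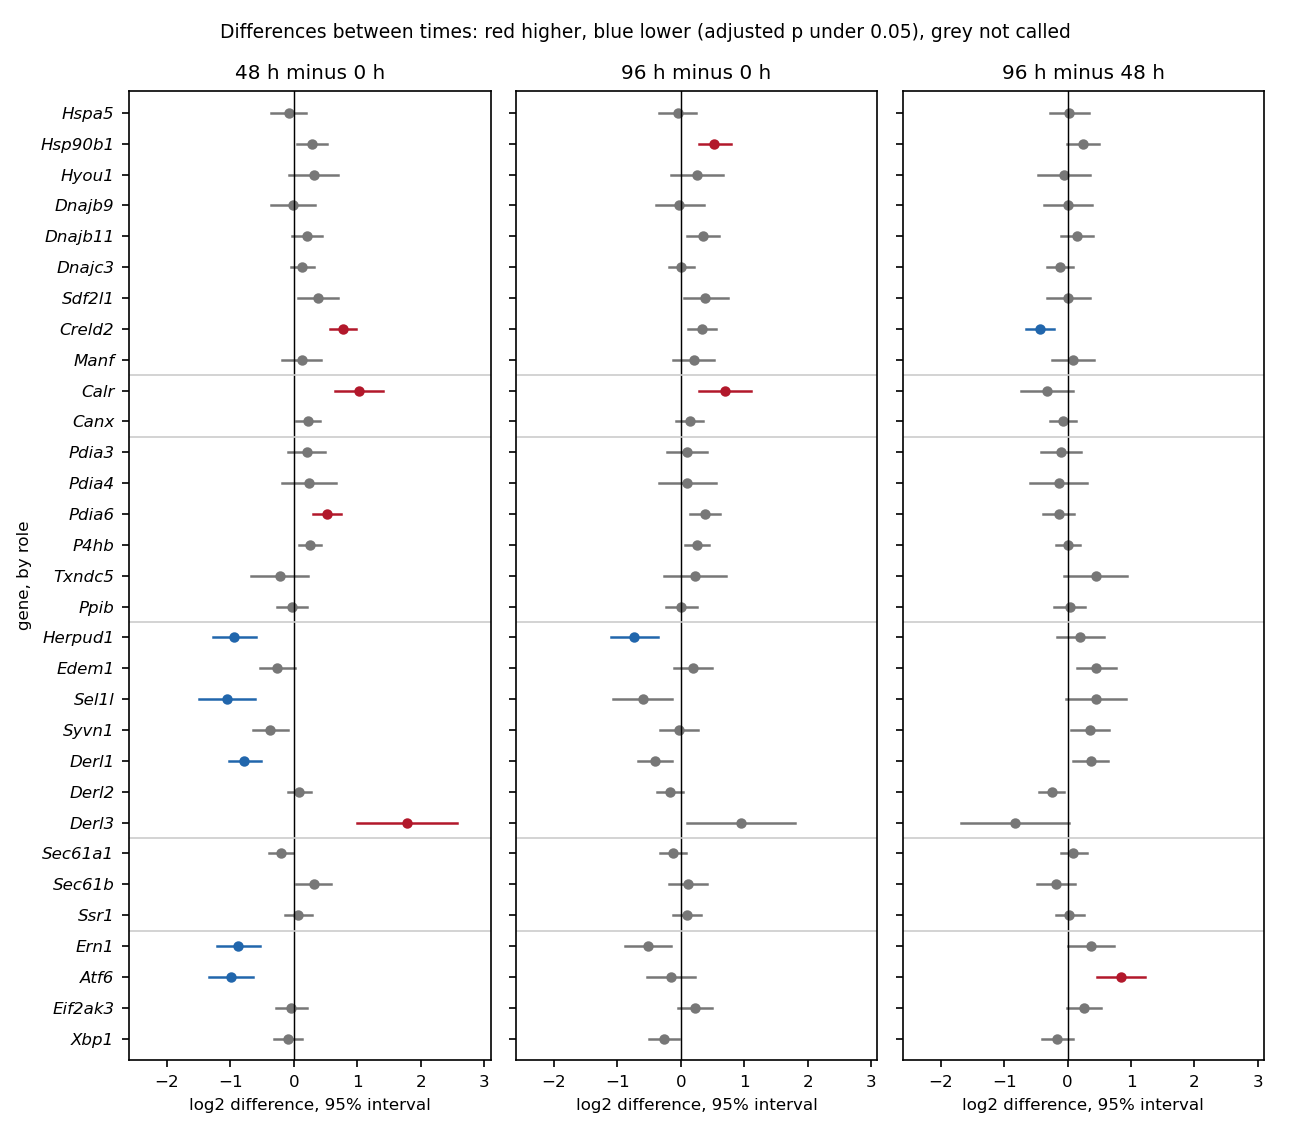
Log2 difference of each of the 31 genes, by role, for 48 h minus 0 h, 96 h minus 0 h and 96 h minus 48 h (points), with limma's 95% interval (bars); red was called higher and blue lower at an adjusted p under 0.05, grey was not called. There are 9 coloured points in the first panel, 3 in the second and 2 in the third.

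Between 96 h and 48 h, Atf6 was called higher and Creld2 lower, while 5.17% of all genes were called higher and 5.95% lower. Atf6 was 1.79-fold higher at 96 h than at 48 h (0.84, SE 0.17, adjusted p = 0.0147), and its 3 arrays at 96 h lay above all 4 at 48 h. Creld2 was 1.36-fold lower at 96 h (log2 difference -0.44, SE 0.10, adjusted p = 0.0238), again with no overlap. The remaining 29 genes did not pass, including Edem1 (0.45, adjusted p = 0.0589), Derl1 (0.37, adjusted p = 0.0824) and Derl3 (-0.83, adjusted p = 0.188). Sel1l had 0.45 (adjusted p = 0.192), Ern1 0.37 (adjusted p = 0.179) and Pdia6 -0.14 (adjusted p = 0.438), so for these genes, called at 48 h and not at 96 h, the 2 times were not shown to differ. The Creld2 call held in 16 of 24 alternatives and the Atf6 call in 22 of 24. The Creld2 call was kept with the scanner-file number as a replicate block (-0.42, adjusted p = 0.0468) and lost with the title number (adjusted p = 0.0650) and with normexp correction (-0.19, adjusted p = 0.0963), and both calls were lost with the array median as the scale. Without 96 h replicate 1, Atf6 had 0.74 (adjusted p = 0.0629). The size for Atf6, a dim probe, was 0.49 in the authors' deposited series table and 0.33 with normexp correction, and it was called in both.

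Over the 465 pairs of the 31 genes, deviations from the time means across the 11 arrays had a median correlation of 0.18, with arrays and scaling shared by all points. The highest was 0.94, between Sdf2l1 and Pdia3, and the lowest -0.84, between Hyou1 and Ern1. Of the 96 h arrays, replicate 3 had the highest Hyou1 and the lowest Ern1.

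The ERSE windows shown above were set beside the differences. Of the 9 genes with an ERSE, 4 were called higher at 48 h, 0 lower, and the median difference was 0.29, beside 10.5% called higher, 8.02% called lower and a median of 0.12 over all genes. These were Creld2, Calr, Pdia6 and Derl3, which are all 4 of the genes called higher. Hsp90b1 (0.29), Canx (0.22), Dnajc3 (0.13), Hspa5 (-0.08) and Syvn1 (-0.38) hold an ERSE too and were not called. Of the 17 genes with a window and no ERSE, 0 were called higher and 3 lower, with a median of -0.02. Of the 5 with no listed window, 2 were called lower. The 48 h split depended on the setting. With the array median as the scale, Creld2, Calr and Pdia6 were not called. With the percentile over probes detected on all arrays, Hsp90b1 and Canx (with an ERSE) and Sdf2l1, P4hb and Sec61b (without) were also called higher. Without 0 h replicate 2, Sdf2l1 and P4hb were also called higher and Syvn1, which holds an ERSE, lower. Syvn1 was called lower too with quantile normalization, normexp correction, array weights and the deposited series table. The same held with only probes detected on all arrays and without 48 h replicate 3. P4hb was called higher too with array weights, only probes detected on all arrays and the scanner-file block, and Sdf2l1 in the deposited series table. At 96 h, 2 of the 9 genes with an ERSE were called higher, Calr and Hsp90b1, and 0 lower. Over all genes 6.17% were higher and 3.38% lower. Of the 17 with a window and no ERSE, 0 were higher and 1 lower. With the array median as the scale, neither Calr nor Hsp90b1 was called at 96 h. With normexp correction, Creld2, Pdia6 and Canx (with an ERSE) and Dnajb11, Sdf2l1, P4hb and Ssr1 (without) were also called higher.

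Of 11 other tested genes with an ERSE window, 0 were called at 48 h by limma's test, and their median difference was -0.09. At 96 h 1 was called higher, 4930402F11Rik, with 0.68 (adjusted p = 0.0365). With ERSE-II, Herpud1 fell and Dnajb11 had 0.21 at 48 h. No test was made of these counts, which were read with the calls known.

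**Figure D4:**
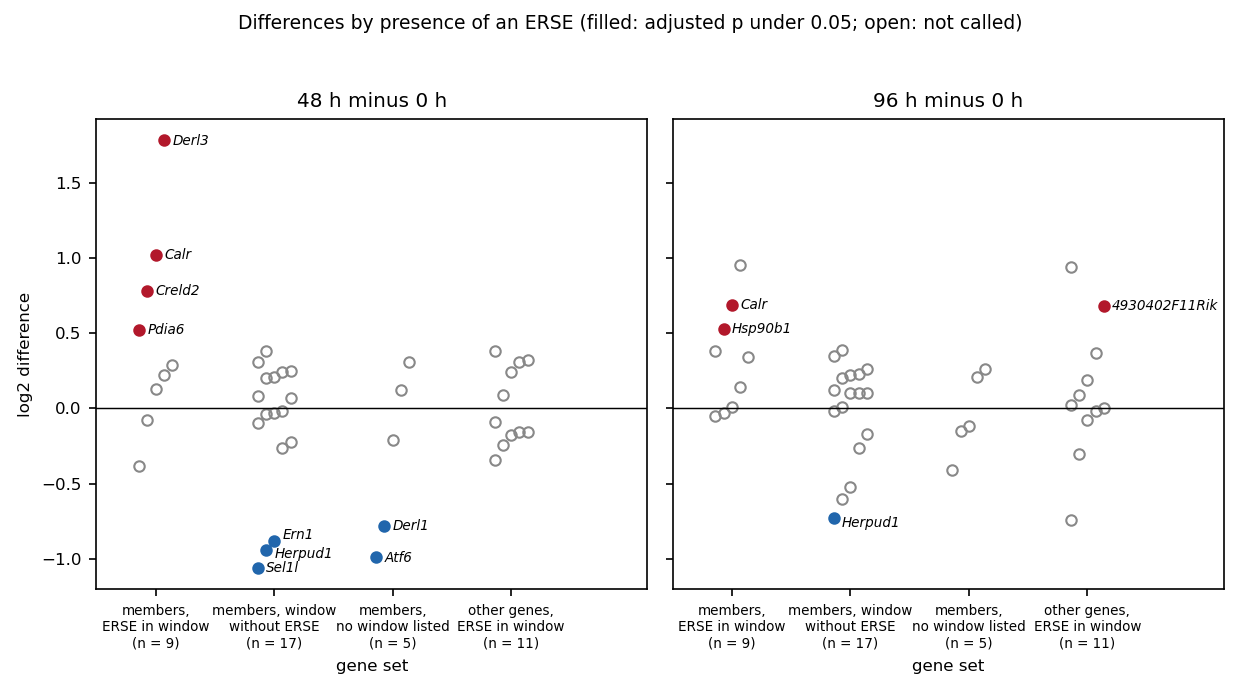
Log2 difference at 48 h minus 0 h (left) and 96 h minus 0 h (right) for single genes, set out by whether the promoter window holds an ERSE, for the 31 genes (first 3 columns) and for 11 other tested genes with an ERSE. Filled and named points were called at an adjusted p under 0.05; at 48 h the 4 called higher are all in the ERSE column of the 31 genes.

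Other genes of the ER and secretory pathway came from a further list of 134, of which 131 were tested and Fkbp9, Ubxn4 and Crebrf had no probe that passed the filter. At 48 h 7 were higher and 25 lower, with a median of -0.14. Over all genes 10.5% were higher and 8.02% lower, with a median of 0.12, so the 7 are under and the 25 over those shares. The further list was counted in the main setting only, and how its counts depend on scale or background handling was not tested. By function, 2 were higher and 5 lower of 29 folding genes, 2 and 4 of 19 degradation genes, 2 and 4 of 33 translocation, signal peptide and glycosylation genes, 1 and 3 of 22 ER to Golgi traffic genes, and 0 and 9 of 28 regulators of the response.

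The 3 largest decreases were of genes downstream of PERK and ATF4. Ddit3, encoding CHOP, read 3.35, 2.87, 3.23 and 3.51 at 0 h, -0.24, -0.72, -0.75 and -0.63 at 48 h, and 2.44, 1.32 and -0.37 at 96 h. Its 48 h arrays were all far below those at 0 h, and the 96 h arrays spread across nearly the whole gap. Ddit3 fell by 3.82 on the log2 scale at 48 h (14.2-fold lower, SE 0.47, adjusted p = 0.00199) and by 2.11 at 96 h (SE 0.51, adjusted p = 0.0327).

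Trib3, a pseudokinase induced by ATF4 and CHOP, fell by 2.72 (adjusted p = 0.00269) at 48 h and by 1.79 (adjusted p = 0.0276) at 96 h. For Ppp1r15a, the phosphatase subunit that reverses PERK's block of translation, the differences were -1.77 (adjusted p = 0.00484) and -1.82 (adjusted p = 0.0121). Ero1a, the oxidase that recharges disulfide isomerases, was also lower at both times, at -1.21 (adjusted p = 0.00266) and -0.95 (adjusted p = 0.0157). Atf4 itself fell by 0.41 at 48 h (adjusted p = 0.0355), and its 96 h difference of -0.35 did not pass (adjusted p = 0.106). Mcfd2, a cargo receptor subunit, fell by 1.07 at 48 h (adjusted p = 0.00765).

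The increases of the further list were smaller. At 48 h they included Erp29, a lumenal chaperone (0.58, adjusted p = 0.00474), the KDEL receptor gene Kdelr2 (0.45, adjusted p = 0.0263) and the translocon subunit gene Sec61g (0.42, adjusted p = 0.0128). Fam8a1, a partner of the SYVN1 complex, had 0.38 (adjusted p = 0.0132) and Vcp, the ATPase that extracts ERAD substrates, 0.36 (adjusted p = 0.0213).

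At 96 h against 0 h 9 of the 131 were higher and 7 lower, with a median of -0.04, beside 6.17% higher, 3.38% lower and a median of 0.11 over all genes. The number higher is thus near the background. The higher ones included the ERAD lectin gene Erlec1 (1.04, adjusted p = 0.0181), Cnpy3, a cofactor of Hsp90b1 in Toll-like receptor folding (0.76, adjusted p = 0.00595), Fkbp2 (0.54, adjusted p = 0.0473), the ER calcium channel gene Itpr1 (0.54, adjusted p = 0.0215) and Creb3l1 (0.53, adjusted p = 0.0260). Besides the stress regulators and Ero1a, the glycosylation gene Alg2 was lower (-0.57, adjusted p = 0.0358).

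Against 48 h, 17 of the 131 were higher and 3 lower at 96 h, with a median of 0.11. Over all genes 5.17% were higher and 5.95% lower, with a median of 0.03. Itpr2 (1.11, adjusted p = 0.00906), Ppic (0.89, adjusted p = 0.0482), Itpr1 (0.75, adjusted p = 0.00534), Erlec1 (0.72, adjusted p = 0.0499) and Gtf2i (0.63, adjusted p = 0.0303) had the largest increases. The 3 lower were Fam8a1 (-0.57, adjusted p = 0.00564), Mbtps2, a protease that activates ATF6 (-0.49, adjusted p = 0.0161), and Nploc4, a cofactor of Vcp (-0.46, adjusted p = 0.0113).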

How the data were processed

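RNeasy-purified RNA was labelled with Cy3 by a low-input kit, per the labels' protocols. Scanner files came from Agilent Feature Extraction 11.0.1.1 with a design on mm9, per the file headers. Their deposited processed intensity is background-subtracted and not normalized between arrays, per the file headers, and other deposited columns are flags for outliers, saturation and signal well above background. A series-wide table that the authors deposited has log2 values, and limma is named in the submitters' processing notes, with no version. On every array that table correlated at 0.99998 with median signals after normexp correction (offset 50) and quantile normalization. The series table and the normexp alternative are therefore not separate checks of background handling.

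Control spots and outlier spots were left out, and none was saturated. The log2 processed intensity minus the array's 75th percentile was averaged over spots of a probe (55681 probes). Accessions gave 27656 probes 1 symbol of the RefSeq table (GRCm38.p6) and 28025 none. Probes had to be well above background on 3 or more of the 11 arrays, and the brightest stood for a gene; of the 31 genes 25 had 1 kept probe. R 4.3.3 and limma 3.58.1 fitted the 11 arrays together as 3 groups (8 residual degrees of freedom), with Benjamini-Hochberg adjustment over 25082 genes (over all kept probes for single probes). Figures used Python 3.11.15 and matplotlib 3.10.9. The code was tested on simulated data.

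Title numbers pair 0 h and 48 h arrays (correlations of deviations 0.28, 0.16, 0.20 and 0.14), while 96 h arrays pair by the scanner-file numbers 1, 3 and 4 (0.12 to 0.36) and not by title (lowest -0.04). Whether numbers stand for the 4 lines is not given in the sources used here. The scanner-file number equals the slide column on every array, so these correlations cannot tell a shared line from a shared column. Values on every array are given for called genes with an absolute difference of 0.5 or more and for the sensors and Xbp1, and up to 5 further genes per direction are named by size. The genes and lists were chosen with earlier results of these data known.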

Additional observations from a re-analysis of the deposited data

Results flagged for a closer look

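In 62 groups of 4 arrays examined, 2 held an array far from the other 3, where chance gives about 1 in 20 groups. Hsp90b1 read 6.00 on 0 h replicate 2, against 5.86 to 5.87 on the other 0 h arrays. P4hb read 5.66 on the same array, against 5.57 to 5.58 on the others.

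For 2 genes the change at 96 h differed from that at 48 h by limma's test of the difference. Creld2 differed by -0.44 (adjusted p = 0.0238) and Atf6 by 0.84 (adjusted p = 0.0147).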

How the results depend on the processing

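No called value changed sign under any alternative run. At 48 h against 0 h, 6 of the 9 calls held under all alternatives that tested them. Derl3 was not tested where only probes detected on all arrays were kept. The calls of Creld2, Calr and Pdia6 held under all but the array median as the scale. That scale left 1 gene higher at 48 h, 0 higher and 4 lower at 96 h, and 0 higher and 0 lower between 96 h and 48 h. The percentile over probes detected on all arrays gave 9 higher at 48 h and 5 at 96 h. Normexp correction, which adds the same offset of 50 before scaling to arrays of unequal brightness and was chosen after seeing the data, gave 9 lower at 48 h, 9 higher at 96 h and 16 higher between 96 h and 48 h. The deposited series table gave 8 lower at 48 h, 6 higher at 96 h and 2 higher between them. Without the filter on dim probes, 0 were higher and 0 lower at 96 h and 0 lower between 96 h and 48 h. Keeping probes detected on all arrays gave 4 higher and 2 lower at 96 h and 2 higher between the later times. The mean of a gene's probes gave 2 lower at 96 h. Array weights gave 4 higher and 2 lower at 96 h. Fits on the compared groups alone gave 0 higher and 0 lower at 96 h and 2 higher between 96 h and 48 h. The replicate block by title number gave 0 higher at 96 h and 0 lower between 96 h and 48 h, and the replicate block by scanner-file number 2 lower at 96 h; at 48 h the blocks gave 4 and 5 higher and 5 and 5 lower. Leaving out 1 array at a time gave 4 to 6 higher and 5 to 6 lower at 48 h, 0 to 4 higher and 0 to 3 lower at 96 h, and 0 to 2 higher and 0 to 1 lower between 96 h and 48 h. The causes of these differences were not tested. Over all genes at 48 h, 2644 were higher and 2012 lower, against 424 and 1931 with the array median, 1849 and 2202 with quantile normalization, 2196 and 2691 in the series table, 9034 and 3585 with normexp, 3623 and 1725 with the percentile over detected probes and 1495 and 1157 without the filter. Slide as a random block was not run, since the 96 h arrays fill a slide of their own. Protein features were not analysed here.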
